A study of Arabidopsis thaliana with 16 samples.

Results

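Protein protected sites (PPSs) that were called with the single-strand-specific ribonuclease (ssRNase) were compared between salt-treated and control-treated Arabidopsis thaliana rosette leaf nuclei. They are the entries of the 4 deposited PPS lists whose names carry the ssRNase alone, and they number 50414 of 122224 PPSs. The other entries are 64465 dsRNase PPSs and 7345 PPSs joined from calls of both RNases. Salt replicates 1 and 2 gave 11663 and 11048 ssRNase PPSs, against 13269 and 14434 in control replicates 1 and 2.

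The groups were salt-treated and control-treated rosette leaves of 4-week-old plants, with 2 biological replicates each. All plants were of the UBQ10:NTF/ACT2p:BirA line in the Columbia-0 ecotype, which carries a biotin-tagged nuclear envelope protein so that nuclei can be collected on streptavidin beads, and all tissue was crosslinked with formaldehyde. Each list rests on 4 libraries of 1 nuclear preparation, of which the ssRNase footprinting and the ssRNase structure-only library define the PPSs described here. One transgenic line was used, tagged nuclei of all leaf cell types were pooled, and the study noted an endoplasmic reticulum marker in the purified nuclei.

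In a footprinting library, RNA is digested while its proteins are still crosslinked to it, and a protected stretch survives. In the structure-only library, proteins are removed first, so that only base pairing protects RNA from ssRNase. A stretch with more reads in the first than in the second is read as bound by an RNA-binding protein (RBP), and because ssRNase cuts unpaired RNA, its PPSs report on proteins that sit on single-stranded or flexible RNA. RBPs on nuclear RNA govern splicing, 3′ end formation, export and stability. Salt stress in plants is known to act on ion transport, proline synthesis and abscisic acid signalling, and many of the transcripts involved are controlled after transcription.

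Some of the highest-scoring ssRNase PPSs show what these calls look like. The sequences are the central 30 nt of each PPS, 5′ to 3′ on the strand of the gene, read from RefSeq TAIR10.1. Capitals would mark a match to any of the 5 motifs described later, and 1 of these sequences holds one (GAAGAA). The first 3 were found in both salt lists and no control list, the next 3 in both control lists and no salt list, and the last 3 in all 4 lists.
AT1G33120: cgatgatgattgatttctgagtttgcgagc
PGY2: cgatgatgattgatttctgagtttgcgagc
AT1G29670: gctaacgatctcatcagtcgctacagcacc
PLPB: cttgatacaaaacccgaatatgacatgtag
MYC2: tccgagtccggttcattctcagacccagaa
AT1G61100: gctcaacgaaaaaagagctcatgagggaga
AT3G04210, first site: agaagtaaagaaactgatagagttGAAGAA
IAA16: atttagagaatatgaaggagaaggtcgtaa
AT3G04210, second site: gaagatgctgtcaaatacgttgagccgtat

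The salt-only pair lay in introns of AT1G33120 (plus strand, chr1:12011432-12011514) and PGY2 (plus strand, chr1:12023806-12023888), which encode ribosomal proteins of the L6 family. Both had an enrichment score of 47.5 in each salt list. Their printed sequences are the same, so a read that lies wholly within this stretch cannot be assigned to either copy. The sequence outside the printed stretch is not given here. The third salt-only PPS lay mainly in the CDS of AT1G29670, a GDSL-like lipase gene (plus strand, chr1:10376553-10376748), with a score of 42.6 in each salt list. Among control-only PPSs, one lay in an intron of PLPB, which encodes a PAS/LOV protein (minus strand, chr2:758976-759048), with 49.7 in each control list. MYC2, the transcription factor of jasmonate responses, held one in its CDS (minus strand, chr1:11799829-11800003), with 48.7 in each control list. AT1G61100, a disease resistance gene of the TIR class, also held one in its CDS (minus strand, chr1:22509942-22510109), with 43.2 in each control list. The PPSs found in all 4 lists scored less. The first in AT3G04210, a disease resistance gene of the TIR-NBS class, lay mainly in the 3′ UTR (minus strand, chr3:1106156-1106283) and scored 13.7 in each salt list and 18.7 in each control list. IAA16, a repressor of auxin responses, had one in its CDS (minus strand, chr3:1290213-1290269) that scored 8.14 in each salt list and 18.4 in each control list. The second in AT3G04210 lay in the CDS (minus strand, chr3:1106312-1106410) and scored 14.2 in each salt list and 11.4 in each control list. In all 9 examples the scores of the replicates of a condition were equal to the last digit. The strand in brackets is that of the gene. For the PPSs of PLPB, AT1G61100, IAA16 and AT3G04210, a list that held them gave the plus strand, opposite to the gene.

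Before any comparison, the lists were set against the strand of the genes they fell in, because the 4 lists stood apart in this respect. Of the ssRNase PPSs that lay in 1 coding gene, salt replicate 1 had 4167 in plus-strand genes and 4328 in minus-strand genes. Salt replicate 2 had 8053 in plus-strand genes and 128 in minus-strand genes. Control replicate 1 had 76 in plus-strand genes and 9686 in minus-strand genes. Control replicate 2 had 1896 in plus-strand genes and 8606 in minus-strand genes. The share in plus-strand genes was thus 49.1% and 98.4% in salt replicates 1 and 2, and 0.779% and 18.1% in control replicates 1 and 2, while 50.4% of the 10003 coding genes considered are on the plus strand. Control replicate 2 owed its plus-strand share to chromosome 5, where 1836 of the 1896 lay. On chromosome 1, salt replicates 1 and 2 had 601 and 26 PPSs in minus-strand genes, against 3275 and 2994 in control replicates 1 and 2. The strand written in the list was that of the gene for 98.5% and 44.1% of these PPSs in salt replicates 1 and 2, and for 50.3% and 67.1% in control replicates 1 and 2.

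**Figure D1:**
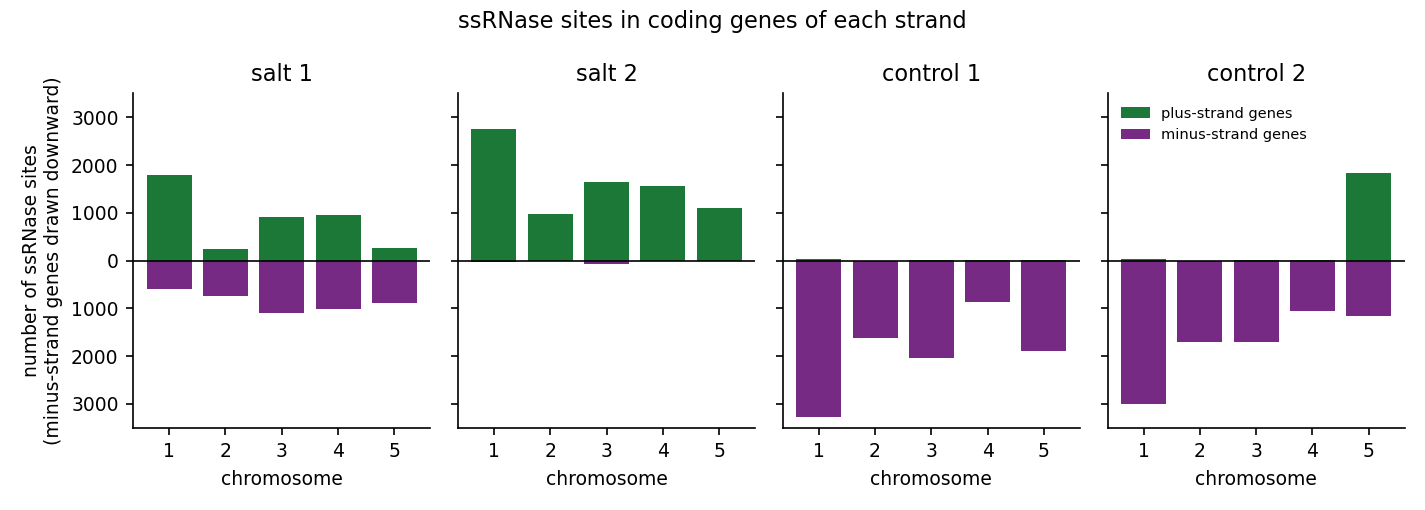
Number of ssRNase PPSs in coding genes (y axis) by chromosome (x axis), 1 panel per list, with plus-strand genes upward in green and minus-strand genes downward in purple. Salt 2 lies almost wholly above the line (8053 against 128) and control 1 almost wholly below it (9686 against 76), and control 2 has plus-strand genes on chromosome 5.

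Lists also shared calls with the same start, end and score, digit for digit. Salt replicates 1 and 2 shared 5238 such calls, all of them listed on opposite strands, and control replicates 1 and 2 shared 8246, all on the same strand. Across conditions, salt replicate 1 shared 4228 with control replicate 1 and 2506 with control replicate 2. Salt replicate 2 shared 0 with either control list. In salt replicate 1 the source of these calls followed the gene strand, since 90.11% of its PPSs in plus-strand genes were identical to a call of salt replicate 2, while 69.9% of those in minus-strand genes were identical to a call of control replicate 1. Just 2119 of the PPSs of salt replicate 1 and 5810 of salt replicate 2 were in no other list in identical form, against 3223 of control replicate 1 and 6110 of control replicate 2. Salt treatment and the gene strand that a list reports therefore cannot be told apart over most of the genome.

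For this reason the main comparisons are given over all sites and within comparable windows. These are windows of 1 Mb, taken for the genes of each strand, in which both lists hold at least 5 PPSs. Under 5% of the calls of the first list in the window may be identical to one of the second. The first list is the salt list, or replicate 1 where replicates are compared, and the share in the second list was not limited. Calls identical to a list outside the pair were not limited either. They were defined after the lists had been seen. Salt replicate 2 and control replicate 2 had 31 such windows (25 of plus-strand genes), salt replicate 1 and control replicate 2 had 56 (50 of minus-strand genes), and salt replicate 1 and control replicate 1 had 19. The control replicates had 40, whereas the salt replicates had 2, so the spread between salt replicates could not be measured in this way.

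The first question was whether salt treatment changes how many PPSs are found. Over whole lists there were fewer in both salt lists than in either control list, at a log2 ratio of mean numbers of −0.29. With 2 lists against 2, the smallest two-sided p of an exact permutation test is 0.333, so no test of a salt effect was run and values are given per list throughout. Windows in which a list had at least 5 PPSs in coding genes held 50.4 and 70.1 PPSs on average in salt replicates 1 and 2, and 84.4 and 75.2 in control replicates 1 and 2. In comparable windows, salt replicate 2 had 1420 PPSs and control replicate 2 had 2333. Salt replicate 1 had 2623 against 2995 in control replicate 2, and 684 against 1027 in control replicate 1. The log2 ratios were −0.72, −0.19 and −0.59, so that salt lists were the smaller in each pair, but the control replicates differed too, with 2538 in replicate 1 and 2078 in replicate 2. The files hold no read counts, so the part of sequencing depth in these numbers was not tested.

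PPSs were alike in shape. Their median length was 60 and 61 nt in salt replicates 1 and 2, and 60 and 58 nt in control replicates 1 and 2. The lower and upper quartiles of length were 47 and 79 nt, and 48 and 81 nt in the salt lists, and 47 and 80 nt, and 46 and 77 nt in the control lists. The median enrichment score was 8.3 and 8.39 in the salt lists and 8.5 and 8.2 in the control lists, and the highest was 50.3 and 54.1 against 56.5 and 56.5. Lengths and scores of the salt and control lists overlapped. dsRNase PPSs of the same lists were shorter, with medians of 46 and 50 nt in salt replicates and 52 and 50 nt in control replicates. Each of the 4 lists had the longer median for ssRNase, and over 4 pairs an exact two-sided permutation test cannot go below 0.125. Few ssRNase PPSs lay on organelle genomes, 14 and 16 on the chloroplast genome in salt replicates and 11 and 12 in control replicates, with 2 and 3 against 6 and 6 on the mitochondrial genome.

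The next question was how many PPSs are shared by the conditions when at least 1 nt must overlap on either strand. Of the PPSs of salt replicate 1, 41.1% (95% Wilson interval 40.2 to 41.9%) overlapped one of control replicate 1, and 42.3% of the PPSs of control replicate 1 overlapped one of salt replicate 1. Of those of salt replicate 2, 5.36% (4.95 to 5.79%) overlapped control replicate 2, and 3.96% in the other direction. Intervals cover counting error only. Without identical calls, the overlap of salt replicate 1 with control replicate 1 was 7.18%. Replicates of a condition overlapped by 45.5% for salt, as a share of replicate 1, and by 69.5% for control (53.7% and 61.8% as shares of replicate 2), but by 0.529% and 12.3% without identical calls.

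Comparable windows are chosen for few identical calls, which are themselves overlaps, so the choice lowers the overlap most for pairs that share many. Of the windows with at least 5 PPSs in both lists, it kept 40 of 114 for the control replicates and 31 of 31 for salt replicate 2 with control replicate 2, and the order of the pairs is partly set by it. In these windows, 37.1% (33.6 to 40.8%) of the PPSs of salt replicate 1 overlapped control replicate 1, 28.1% (25.8 to 30.5%) of those of salt replicate 2 overlapped control replicate 2, and 18.9% (17.5 to 20.5%) of those of salt replicate 1 overlapped control replicate 2. Between control replicates, 17.0% (15.6 to 18.5%) of the PPSs of replicate 1 overlapped replicate 2. As shares of the second list of each pair, the overlaps were 25.1% of control replicate 1 with salt replicate 1, 16.3% of control replicate 2 with salt replicate 2 and 16.9% of control replicate 2 with salt replicate 1, against 19.7% of control replicate 2 with control replicate 1. In both readings, overlaps between salt and control lay on both sides of that between controls. Of the 56 windows of salt replicate 1 with control replicate 2, 50 were of minus-strand genes. In such genes, 69.9% of the PPSs of salt replicate 1 were identical to a call of control replicate 1. The comparison of salt replicate 1 with control replicate 2 may therefore partly repeat that of the control replicates. The lowest was that of salt replicate 2 with control replicate 1, at 5.37% (3.74 to 7.66%) of the salt list and 5.02% of the control list over 10 windows. At the level of genes, 323 of the 443 genes with a PPS of salt replicate 2 in these windows (72.9%) also had one of control replicate 2, as did 738 of 1004 genes (73.5%) for salt replicate 1. With control replicate 1, it was 197 of 305 genes (64.6%) for salt replicate 1 and 29 of 132 (22.0%) for salt replicate 2. For control replicate 1 against control replicate 2 the figure was 556 of 739 (75.2%). As shares of the genes of control replicate 2, the overlaps with salt replicate 2, salt replicate 1 and control replicate 1 were 46.3%, 62.8% and 65.7%. In each of these pairs genes were shared more often than single PPSs were. The definitions favour this, since a gene counts as shared wherever in it the PPSs of the lists lie.

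**Figure D2:**
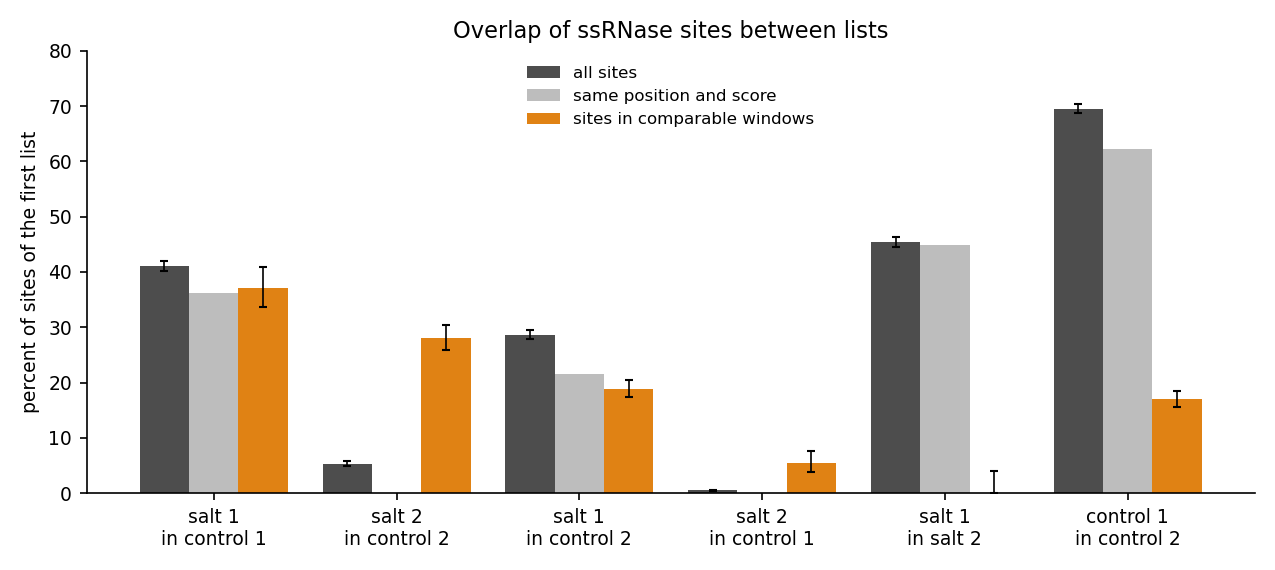
Percent of the PPSs of the first-named list (y axis) that overlap the second by at least 1 nt, for 6 pairs of lists (x axis), with 95% Wilson intervals. Dark bars are all sites, light bars are calls with the same position and score, and orange bars are sites in comparable windows. There, salt 1 in control 1 (37.1%), salt 2 in control 2 (28.1%) and salt 1 in control 2 (18.9%) are above control 1 in control 2 (17.0%), and salt 2 in control 1 (5.37%) is below it.

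The highest-scoring PPSs that were called in both conditions without being identical calls in the pair of lists compared are shown next. In minus-strand genes, 69.9% of the PPSs of salt replicate 1 were identical to a call of control replicate 1. Whether this holds for the calls of salt replicate 1 shown here was not tested. The examples were chosen after their values had been seen, and the 30 nt printed are the centre of the shared stretch.
AT5G18130: agtgacttgagtagcaagaaagaggttgat
AT5G41750: atttaggcacaatcaaacaatggctacacg
AT5G13200: ggagattgtttttaacgtaggtctaatgtt
DTX35: ctgttgattgttctgtataagacaaactgg
PRR7: atggaagtaatgggccatatggaagcagta
HSF A4A: gagaaagaaggattgcttgaagagttacat

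In AT5G18130 (plus strand), the CDS held a PPS at chr5:5996098-5996228 in salt replicate 2 with a score of 14.25 and one at chr5:5996077-5996214 in control replicate 2 with a score of 47.5. AT5G41750, a disease resistance gene of the TIR-NBS-LRR class, scored 31.2 in salt replicate 2 and 25.1 in control replicate 2 in its CDS. In an intron of AT5G13200 the scores were 24.2 in salt replicate 2 and 20.1 in control replicate 2. DTX35, a MATE-type transporter gene, scored 46.7 in salt replicate 1 and 21.2 in control replicate 2. PRR7, a pseudo-response regulator of the circadian clock, scored 48.4 in salt replicate 1 and 6.57 in control replicate 2. HSF A4A, a heat shock factor, scored 14.1 in salt replicate 1 and 38.7 in control replicate 2. The score was higher in salt in 4 of these 6 and lower in 2.

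PPSs present in both lists of one condition and neither list of the other are the classes usually read as condition-specific. There were 5143 salt-only PPSs counted in salt replicate 1 and 5799 counted in replicate 2, against 5592 control-only PPSs counted in control replicate 1 and 5359 in replicate 2. They followed the gene strand almost completely. Of the salt-only PPSs in coding genes, 98.4% and 98.6% lay in plus-strand genes, against 0.535% and 0.482% of the control-only PPSs. In salt replicate 1, 99.3% of salt-only PPSs were identical to the call in replicate 2, and in control replicate 1, 90.3% of control-only PPSs were identical to the call in replicate 2. When identical calls were left out, 33 salt-only and 299 control-only PPSs remained. Just 81 PPSs of salt replicate 1 (0.695%) overlapped all other lists, and the 43 of these in coding genes were all in minus-strand genes.

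The genes with most PPSs of each class show the same division. Each gene was called higher in salt where both salt lists held more PPSs than either control list, and higher in control where the reverse held. Of the 5258 coding genes with an ssRNase PPS in any list, 1319 (25.1%) were higher in salt and 1461 (27.8%) higher in control. Among the 2469 plus-strand genes, 1308 (53.0%) were higher in salt and 8 (0.324%) in control. Among the 2789 minus-strand genes, 11 (0.394%) were higher in salt and 1453 (52.1%) in control. A call in a plus-strand gene was therefore nearly always for salt, and one in a minus-strand gene nearly always for control.

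The 10 genes with most salt-only PPSs were all on the plus strand, 8 of them on chromosome 1. They included 4 disease resistance genes of the NBS-LRR kind that lie near each other on chromosome 1. AT1G58602 had 37 and 36 PPSs in salt replicates 1 and 2 and 0 and 0 in the control lists. AT1G58848 had 25 and 25 against 0 and 0, AT1G58807 had 21 and 21 against 0 and 0, and AT1G59218 had 21 and 19 against 0 and 0. These genes belong to a family of close copies, so the counts of single members are uncertain. AT1G02080, annotated as a transcription regulator, had 24 and 35 PPSs in the salt lists and 0 and 0 in the control lists. The nucleoporin gene AT4G31570 had 23 and 38 against 0 and 0, and the spatacsin-related gene AT4G39420 had 21 and 37 against 0 and 0. AT1G20920 (RCF1, a regulator of cold-responsive CBF genes) had 19 and 24 against 0 and 0, SPL14, a squamosa promoter-binding protein, had 19 and 22 against 0 and 0, and AT1G22930 had 18 and 26 against 0 and 0. None of the control lists reached any of these genes, which lie where the control lists report next to no plus-strand gene.

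The 10 genes with most control-only PPSs were all minus-strand genes of chromosome 1. AT1G48090, a very long gene for a calcium-dependent lipid-binding protein, had 0 and 0 PPSs in salt replicates 1 and 2 and 71 and 67 in control replicates 1 and 2. UPL1, a ubiquitin-protein ligase, had 0 and 0 against 60 and 59. TOR, the kinase that couples growth to nutrients, had 0 and 0 against 25 and 26, and HAC1, a histone acetyltransferase, had 0 and 0 against 23 and 26. The splicing factor gene AT1G60200 had 0 and 0 against 24 and 22. The others were AT1G51805, GC5, AT1G61890 and AT1G63880, with 0 in both salt lists and 16 to 23 in the control lists, and AT1G31540, with 5 and 0 in the salt lists and 27 and 22 in the control lists. AT1G31540, a TIR-NBS-LRR disease resistance gene, was thus the single one of the 10 that salt replicate 1 reached.

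The 6 genes with most PPSs in all 4 lists were minus-strand genes near the start of chromosome 3, where salt replicate 2 also reported. AT3G01310, the homolog of yeast Vip1, had 22 and 8 PPSs in salt replicates 1 and 2 and 14 and 15 in control replicates 1 and 2. SEC, an O-linked sugar transferase gene, had 17 and 8 against 12 and 11, and AT3G04210 had 13 and 6 against 9 and 9. IAA16 had 8 and 4 against 8 and 8. KIN10, the catalytic subunit of the energy-sensing kinase SnRK1, had 4 and 2 against 4 and 4, and HIR2 had 4 and 3 against 3 and 3. In these genes the salt counts straddled or touched the control counts, and none was called in either direction.

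Within comparable windows, single genes could be compared one list against another. Their choice, as the genes with the largest differences, was made after the values had been seen, so that the size of the differences is a description. Between salt replicate 2 and control replicate 2, 120 genes had PPSs in salt alone, 375 in control alone and 323 in both. TPS7, of the trehalose phosphate synthase family, had 18 PPSs in salt replicate 2 and 0 in control replicate 2, and PRP39, a splicing factor gene, had 16 against 0. Both lie in plus-strand genes of chromosome 1, of which control replicate 2 reports 35 PPSs in all. On chromosome 5, where both lists reported plus-strand genes, the counts lay closer. PHOT2, the blue light receptor phototropin 2, had 20 PPSs in salt replicate 2 and 14 in control replicate 2, of which 8 of the salt PPSs overlapped a control PPS. AT5G41740 had 13 against 11 with 8 overlapped, AT5G41750 had 9 against 15 with 8 overlapped, AT5G17910 had 9 against 11 with 7 overlapped, and AT5G62570 (CBP60a, a calmodulin-binding protein) had 8 against 10 with 7 overlapped.

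Between salt replicate 1 and control replicate 2, 266 genes had PPSs in salt alone, 438 in control alone and 738 in both. AT4G17140, which encodes a protein with a pleckstrin homology domain, had 57 PPSs in salt replicate 1 and 29 in control replicate 2, with 15 of the salt PPSs overlapped, and control replicate 1 had 48. KAK (UPL3), a ubiquitin-protein ligase of trichome development, had 22 against 8, with 17 in control replicate 1. AT4G33150, which encodes the lysine-degrading enzyme LKR/SDH, had 21 against 8, with 11 in control replicate 1. All of these lay on the minus strand, where salt replicate 2 had 0 for each. In the other direction, PHV, a homeodomain factor of leaf polarity, had 0 against 10 and 0 against 11 in control replicates 2 and 1. JMJ18, a histone demethylase gene, had 3 PPSs in salt replicate 1 against 13 and 14 in control replicates 2 and 1. ML5, an RNA-binding protein related to Mei2, had 3 against 14 and 16. The long gene AT5G40450 had 20 PPSs in salt replicate 1 against 27 in control replicate 2 and 48 in control replicate 1, and all 20 overlapped a PPS of control replicate 1.

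The genes of 11 lists that bear on salt stress and on RNA processing were then examined one by one. Of their 98 members, 94 matched the annotation by symbol, 79 of these were among the coding genes considered and 73 had an ssRNase PPS, 35 on the plus strand and 38 on the minus strand. Of the 73, 17 were higher in salt and 16 higher in control, and all 17 were plus-strand genes and all 16 minus-strand genes. The shares are near the 25.1% and 27.8% of all genes.

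For sodium transport, 5 members had a PPS, of which 1 was higher in salt and 0 in control. AVP1, the vacuolar proton pyrophosphatase, had 9 and 12 PPSs in salt replicates 1 and 2 and 0 and 0 in the control lists. NHX2, a vacuolar sodium-proton exchanger on the minus strand, had 5 and 1 against 5 and 5, and NHX1, its plus-strand relative on chromosome 5, had 0 and 2 against 0 and 6. SOS1, the plasma membrane exchanger, had 0 and 1 against 0 and 0. The NHX1 counts of salt replicate 2 and control replicate 2 come from a comparable window, where 1 PPS of each coincided.

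The 4 proline genes with a PPS were all on the minus strand, where salt replicate 2 held 0 and the summed counts were 24 and 0 in the salt lists and 39 and 26 in the control lists. P5CS1, the rate-limiting enzyme of proline synthesis under stress, had 11 and 0 PPSs in salt replicates 1 and 2 and 21 and 21 in control replicates 1 and 2, and was the 1 member called. P5CS2 had 11 and 0 against 15 and 2, and ERD5, the proline dehydrogenase, had 2 and 0 against 2 and 3. In a comparable window P5CS2 had 11 PPSs in salt replicate 1 against 2 in control replicate 2, yet control replicate 1 had 15. The count of salt replicate 1 thus lay between those of the controls.

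Of 10 abscisic acid signalling genes with a PPS, 4 were higher in salt and 2 in control. The bZIP factor genes ABF3 and ABF4, on the plus strand, had 5 and 9 and 4 and 13 PPSs in the salt lists and 0 in both control lists. ABF2, on the minus strand, went the other way, with 0 and 0 against 2 and 2. The phosphatase gene PP2CA, on the minus strand, had 3 and 0 against 7 and 7. ABI1, another phosphatase of this pathway, had 7 and 0 against 3 and 4, and in a comparable window 3 of the 7 PPSs of salt replicate 1 overlapped control replicate 2. The kinase gene SNRK2.3 had 0 and 4 against 0 and 5, and SNRK2.2 had 5 and 0 against 6 and 1.

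Among dehydrins and cold or drought proteins, 5 genes had a PPS, 0 were higher in salt and 1 in control. RD29A, a classic marker of osmotic stress, had 0 and 1 PPSs in salt replicates 1 and 2 and 0 and 10 in control replicates 1 and 2. It lies in a comparable window on chromosome 5, and the difference of 1 against 10 has no second pair of lists to set beside it. The dehydrin gene ERD14 had 0 and 0 against 7 and 7, COR47 had 1 and 0 against 6 and 1, and ERD10 had 1 and 0 against 5 and 1. KIN1 had 0 and 3 against 0 and 0.

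All 16 SR and SR-like splicing factor genes among the coding genes had a PPS, 4 higher in salt and 6 in control. SR34 had 3 and 5 PPSs in the salt lists against 0 and 0, and RSZ22 had 2 and 3 against 0 and 0. SR30 had 2 and 0 against 7 and 5, and RSZ33 had 1 and 0 against 6 and 5. RS31 had 5 and 0 against 9 and 1, so that salt replicate 1 again lay between the control lists. The glycine-rich RNA-binding protein genes GRP7 and GRP8 had 1 and 0 and 2 and 0 PPSs in the salt lists, against 1 and 1 in the control lists for each. Of the m6A genes matched by symbol, the reader ECT2 had 5 and 0 against 9 and 9, and ECT3 had 0 and 0 against 1 and 2. AT3G05680 (VIR) and AT4G09980 (MTB) did not match by symbol and were left out of the counts. They had 6 and 0 against 6 and 7, and 2 and 0 against 2 and 0, and neither was called.

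The 15 light-harvesting, photosystem and Rubisco genes with a PPS summed to 18 and 21 PPSs in the salt lists and 24 and 25 in the control lists, with 5 higher in salt and 3 in control. LHCA3 had 3 and 3 against 0 and 0, and LHCB5 had 1 and 4 against 0 and 0. RCA, Rubisco activase, had 2 and 0 against 6 and 6. LHCB3, in a comparable window of chromosome 5, had 0 and 4 against 0 and 3. Of 6 clock genes with a PPS, 2 were higher in salt and 0 in control. GI had 8 and 11 PPSs against 0 and 0, and TOC1 had 0 and 6 against 0 and 11, with 3 PPSs of salt replicate 2 overlapped. PRR7 had 9 and 0 against 16 and 3. Among 5 chaperone genes, HSP70-1 had 1 and 0 against 7 and 4, and BIP2, a chaperone of the endoplasmic reticulum, had 4 and 0 against 7 and 1. The chromatin remodeller gene INO80 had 4 and 13 against 0 and 0.

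Leaf identity was checked through the transcripts with structure scores. All 3 mesophyll markers, LHCB1.3, RBCS1A and RCA, were among them, as was SUC2 of phloem companion cells, which had 0 PPSs in every list. Markers of guard cells (MYB60 and FAMA), root hairs (EXP7 and COBL9) and pollen (VGD1) were not among them. The table holds only transcripts that passed the authors' minimums for reads and UTR length, and leaf-expressed genes such as LHCB4.2 and PSBO2 were not among them either, so the missing markers do not show which cells were absent.

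The location of PPSs within genes differed little between conditions. The CDS took 80.02% and 82.6% of genic PPS bases in salt replicates 1 and 2, and 80.3% and 81.2% in control replicates 1 and 2, against 48.2% of gene bases. This gave a log2 enrichment of 0.73 and 0.78 in salt and 0.74 and 0.75 in control. Introns took 11.3% and 10.08% of PPS bases in salt and 11.1% and 10.2% in control, against 35.9% of gene bases, a log2 enrichment of −1.66 and −1.83 in salt and −1.69 and −1.82 in control. The 3′ UTR was at −1.13 and −1.36 in salt and −1.10 and −1.13 in control, and the 5′ UTR at −0.58 and −0.81 in salt and −0.63 and −0.58 in control. Salt and control lists overlapped for the CDS and introns. Both UTR values of salt replicate 2 lay below all others.

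In dsRNase PPSs, introns took 20.9% and 21.9% of genic bases in salt replicates and 16.0% and 23.5% in control replicates, more than for ssRNase PPSs in each of the 4 lists. ssRNase PPSs that crossed a splice site made up 8.46% and 8.90% of those in genes in salt replicates and 8.79% and 7.48% in control replicates. For dsRNase PPSs these shares were 19.9% and 23.4% in salt and 15.7% and 23.9% in control. Since the lists are 4 and share calls, an exact two-sided test over the pairs cannot go below 0.125.

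**Figure D3:**
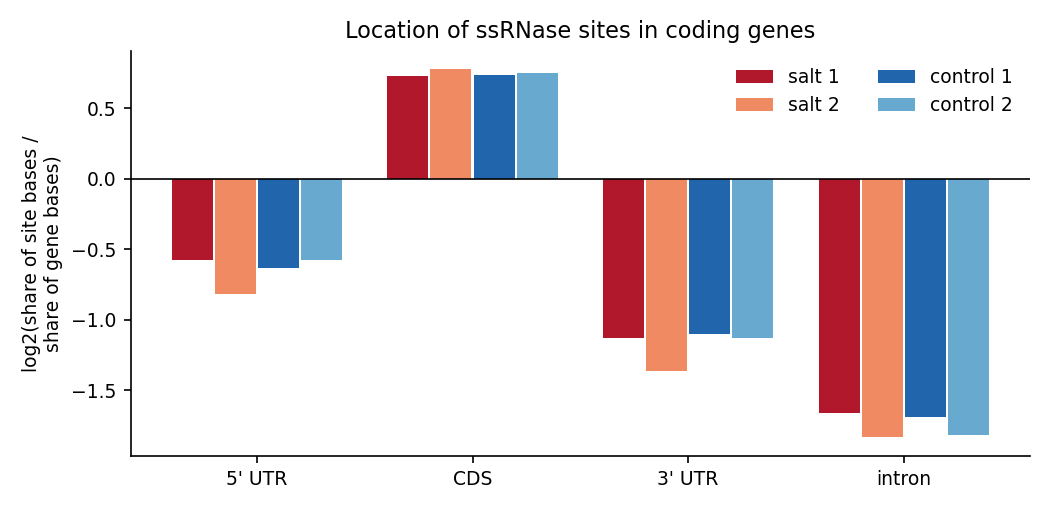
log2 of the share of ssRNase PPS bases over the share of gene bases (y axis) in the 4 parts of coding genes (x axis), 1 bar per list. The CDS is at 0.73 to 0.78 and introns are at −1.83 to −1.66 in every list, and the bars of salt and control lists interleave there.

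In comparable windows the CDS share moved in either direction. It was 85.2% in salt replicate 2 against 76.0% in control replicate 2, 78.6% in salt replicate 1 against 83.9% in control replicate 2, and 85.4% in salt replicate 1 against 82.7% in control replicate 1. The control replicates themselves were at 78.8% in replicate 1 and 84.6% in replicate 2. A difference as large as any between salt and control but 1 was thus seen between the control lists.

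Around the start codon, PPS occupancy rose across the last bases of the 5′ UTR and stayed high in the CDS. In genes with a PPS, 2.51% and 2.57% of transcripts were bound at 100 nt before the start codon in salt replicates 1 and 2, and 5.05% and 4.01% in control replicates 1 and 2. At the first coding base the shares were 8.63% and 11.8% in salt and 11.3% and 10.7% in control. Mean occupancy over the first 100 nt of the CDS divided by that over the last 100 nt of the 5′ UTR was 1.92 and 2.34 in salt and 1.96 and 2.01 in control. Around the stop codon, occupancy fell into the 3′ UTR, and the ratio of the last 100 nt of the CDS to the first 100 nt of the 3′ UTR was 2.301 and 2.89 in salt and 2.03 and 2.36 in control. Neither ratio separated the conditions, and salt replicate 2 was the highest for both.

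**Figure D4:**
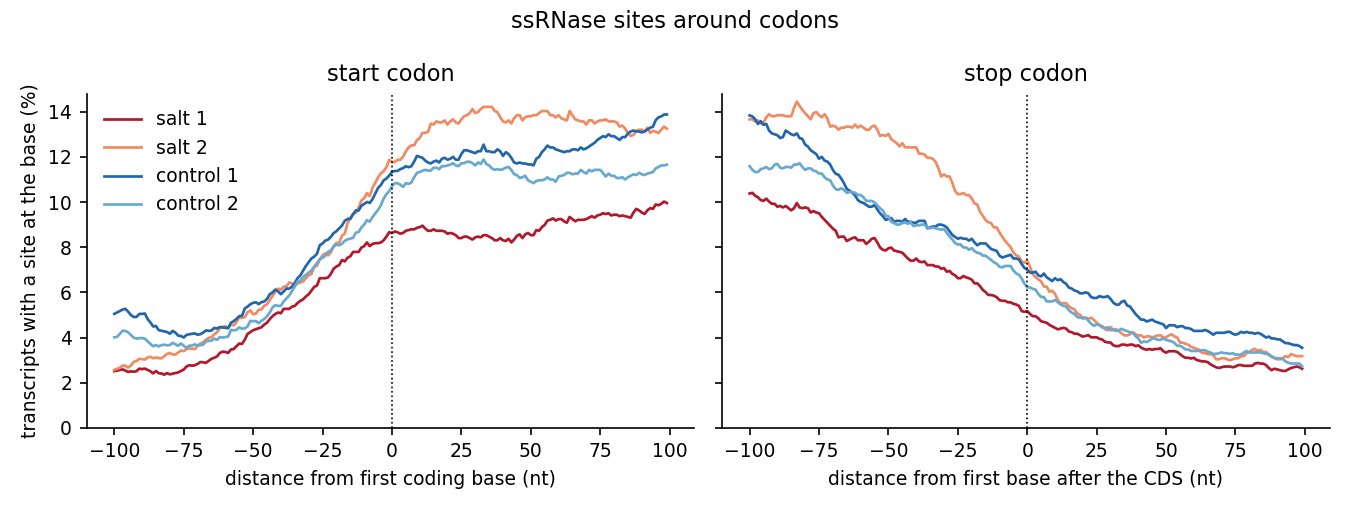
Percent of transcripts with an ssRNase PPS at each base (y axis) against the distance in nt from the first coding base (left) and from the first base after the CDS (right), 1 line per list. Every line climbs into the CDS and descends into the 3′ UTR, and at the first coding base the salt lists (8.63% and 11.8%) enclose the control lists (11.3% and 10.7%).

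PPSs had a higher GC content than their surroundings. The GC content of PPSs was 43.6% and 44.3% in salt replicates 1 and 2 and 43.5% and 44.3% in control replicates 1 and 2. Flanks of equal length on both sides had 40.8% and 41.0% in salt and 40.6% and 40.7% in control. The excess was 2.81 and 3.27 percentage points in salt and 2.89 and 3.60 in control, so that the conditions overlapped. In comparable windows it was 3.76 in salt replicate 2 against 3.01 in control replicate 2, 2.13 in salt replicate 1 against 4.93 in control replicate 2, and 2.38 in salt replicate 1 against 2.25 in control replicate 1. The control replicates there had 2.25 in replicate 1 and 5.27 in replicate 2. On the strand of the gene, PPSs had more G than the flanks, at 24.7% and 25.5% against 22.0% and 22.0% in salt and 24.6% and 25.7% against 21.9% and 22.0% in control. C differed little, at 19.01% and 18.85% against 18.81% and 18.92% in salt and 18.89% and 18.55% against 18.70% and 18.73% in control. PPSs had less T than the flanks, at 27.2% and 26.9% against 31.5% and 31.4% in salt, and 27.0% and 26.9% against 31.6% and 31.6% in control.

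Next, 5 short motifs were searched as exact letters on the strand of the gene alone. GAAGAA, a purine repeat of the kind found in exonic splicing enhancers, was in 10.2% and 9.74% of PPSs in salt replicates 1 and 2 and in 11.1% and 10.9% in control replicates 1 and 2. Flanks of the same length held it in 6.49% and 6.74% in salt and 6.82% and 6.60% in control. The pyrimidine repeat TCTTCT was rarer in PPSs than in flanks. It was in 3.53% and 3.28% of PPSs against 6.33% and 6.78% of flanks in salt, and in 3.74% and 3.33% against 6.98% and 6.55% in control. TTTTTT was in 2.47% and 1.91% of PPSs against 6.06% and 5.91% of flanks in salt, and in 2.48% and 2.04% against 6.19% and 5.75% in control. GGACT, which fits the core of m6A sites, was in 5.71% and 6.03% of PPSs against 4.03% and 3.92% of flanks in salt, and in 5.73% and 6.13% against 3.82% and 3.59% in control. TGTANATA, the Pumilio motif with N for any base, was in 0.541% and 0.452% of PPSs in salt and 0.656% and 0.476% in control, against 0.638% to 0.733% of flanks. The purine repeat was lower in both salt lists than in either control list, and none of the other 4 motifs separated the conditions. In comparable windows GAAGAA was in 8.38% of the PPSs of salt replicate 2 against 9.94% in control replicate 2, in 8.65% of those of salt replicate 1 against 12.1% in control replicate 2, and in 10.2% of those of salt replicate 1 against 15.0% in control replicate 1. The flanks differed in the same direction, at 5.60% against 6.41%, 5.85% against 6.74%, and 5.70% against 9.35% for these pairs, and the PPSs of control replicates 1 and 2 differed too, at 10.3% and 12.8%. These matches describe the letters in the windows and do not identify a bound protein.

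Structure scores were last compared in and around PPSs. The score of a base compares the coverage of the structure-only libraries that retain paired and unpaired RNA, standardized by the authors, and a higher score means more paired. Replicates were merged by the authors, so each condition has 1 score and no replicate error, and the structure-only ssRNase library also served to call the PPSs. With the scores of salt leaves, the mean difference between PPSs and their spliced flanks was −0.138 and −0.0929 at the PPSs of salt replicates 1 and 2, and −0.163 and −0.151 at those of control replicates 1 and 2. With the scores of control leaves, it was −0.208 and −0.182 at the PPSs of salt replicates 1 and 2, and −0.183 and −0.245 at those of control replicates 1 and 2. At dsRNase PPSs the difference was larger in size in each list. With the scores of salt leaves it was −0.201 and −0.245 in salt replicates and −0.175 and −0.234 in control replicates. With those of control leaves it was −0.322 and −0.361, and −0.206 and −0.372. Over all sites the dip was thus less deep in the scores of salt leaves at the PPSs of every list, whichever condition the PPSs came from.

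This did not hold at every list in comparable windows. In the windows of salt replicate 1 and control replicate 2, the PPSs of salt replicate 1 were at −0.157 in the scores of salt leaves and −0.117 in those of control leaves, and the PPSs of control replicate 2 at −0.136 and −0.340 in the same order. In the windows of salt replicate 2 and control replicate 2, the PPSs of salt replicate 2 were at −0.0709 in the scores of salt leaves and −0.0859 in those of control leaves, and the PPSs of control replicate 2 at −0.0742 and −0.215. The order of the 2 score tables turned for salt replicate 1 and stayed for the other lists.

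At the PPS centre the mean score of salt leaves was −0.154 and −0.0955 for salt replicates 1 and 2 and −0.197 and −0.183 for control replicates 1 and 2. The mean score of control leaves there was −0.259 and −0.236 for salt replicates and −0.254 and −0.317 for control replicates. The share of PPSs with a lower score than their flanks was 58.8% and 56.4% in salt replicates by the scores of salt leaves, and 60.01% and 59.3% in control replicates by the same scores. By the scores of control leaves, it was 61.8% and 59.5% in salt replicates and 60.8% and 63.4% in control replicates, where the conditions overlapped. In PPS bases, the score of salt leaves exceeded that of control leaves by 0.0956 and 0.125 in salt replicates and by 0.0578 and 0.117 in control replicates. In the flanks the difference was 0.0262 and 0.0365 in salt replicates and 0.0385 and 0.0227 in control replicates.

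**Figure D5:**
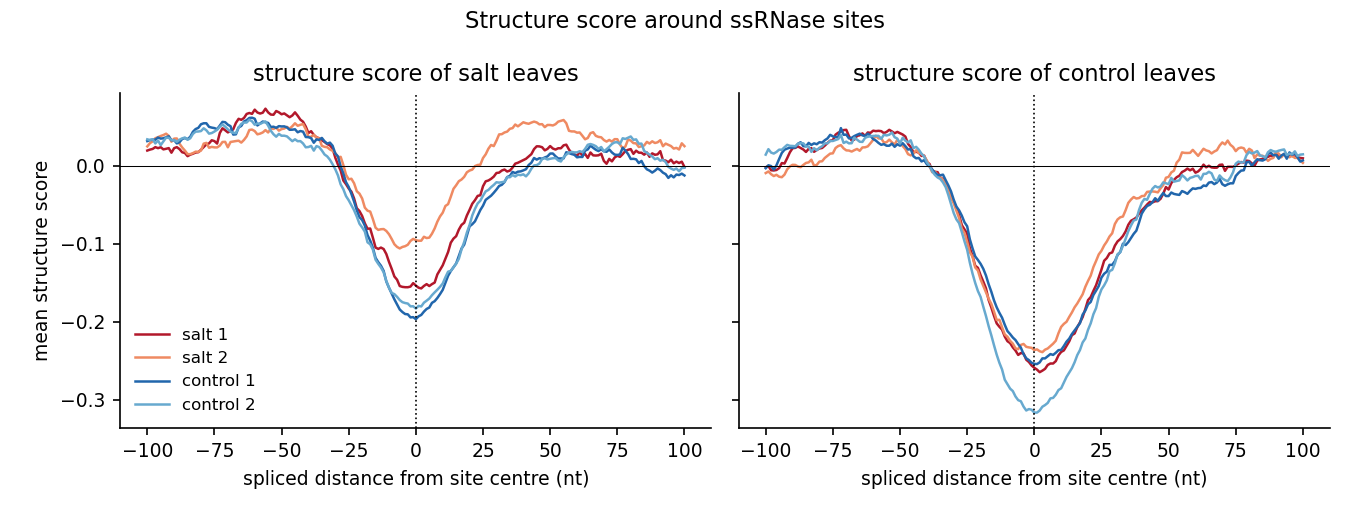
Mean structure score (y axis) against the spliced distance in nt from the centre of ssRNase PPSs (x axis), with the scores of salt leaves on the left and of control leaves on the right, 1 line per list of PPSs. The lines dip at the centre in both panels, to between −0.197 and −0.0955 for salt leaves and between −0.317 and −0.236 for control leaves.

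Of the 466 lncRNA genes that lie apart from the coding genes considered, 56 and 40 held an ssRNase PPS in salt replicates 1 and 2, and 47 and 55 in control replicates 1 and 2. PPSs in any of the 627 lncRNA genes were 2.02% and 1.59% of the salt lists and 1.95% and 1.81% of the control lists, so the conditions overlapped.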

How the data were processed

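PIP-seq was performed on nuclei of salt- and control-treated leaves in 2 replicates, with 4 libraries per replicate (16 in all), grouped by their titles. The authors thinned reads at random until the paired libraries with and without protein were equal in size, trimmed them with cutadapt (1.2.1 in the submitters' processing notes), mapped them to TAIR10 with TopHat2 2.0.10, and called PPSs separately in each replicate with CSAR, which they had modified, accepting 5% false discoveries. The enrichment scores and the structure scores are used as the authors deposited them, and structure scores merge both replicates. The depth of each library is unknown because no read counts were used here.

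Overlaps (at least 1 nt, either strand) were computed with bedtools 2.31.1, other values with Python 3.11.15, numpy 2.4.6, pandas 2.3.3 and scipy 1.17.1. PPSs were placed in the longest transcript of each of 10003 nuclear coding genes. Their shortest 5′ UTR was 45 nt and their shortest 3′ UTR 140 nt. Of their start codons, 10002 read ATG in TAIR10.1, from which sequences, symbols and products come. Genes without a symbol are given by locus. Structure comparisons required 10 scored bases in PPS and flanks. The overlap, gene placement, codon and structure steps were tested on simulated data.

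The genes named are the 10 with most salt-only, the 10 with most control-only and the 6 with most PPSs in all 4 lists. Members of the gene lists with PPSs in at least 2 lists were added, but only a part of these 60 is named. The PPSs named are the 3 with the highest mean score of each class. Members, gene lists and rules were chosen with earlier results of these data known. Further genes are marked as chosen after their values were seen, as were SOS1 and KIN1. No test was run between conditions.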

Additional observations from a re-analysis of the deposited data

How the results depend on the processing

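No paired analysis was possible because the results come from no test; the values with 1 replicate left out are those of the single pairs of lists. The log2 ratio of site numbers was −0.19 without calls identical to the other condition. Without calls identical to any other list, an alternative chosen after seeing the data, the salt minus control difference was 0.45 for the start codon ratio (0.15 with all sites), 0.83 for the stop codon ratio (0.40) and −0.65 for the GC excess in percentage points (−0.21), salt-only and control-only sites numbered 33 and 299, and genes higher in salt and in control numbered 157 and 357. With sites on the strand of the gene only, the GC excess differed by −1.36, the structure difference was 0.18 (0.098 with all sites), and the genes numbered 657 and 872. The structure difference sets salt PPSs in the scores of salt leaves against control PPSs in the scores of control leaves. It thus mixes the change of PPSs with the change of scores. With an excess of at least 2 sites they numbered 787 and 814. Overlap on the same strand left 712 salt-only and 7276 control-only sites, and sites above the median score gave 2580 salt-only and 2810 control-only sites.

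With 1 replicate left out, the range was −0.39 to −0.19 for the log2 ratio of numbers, −0.0048 to 0.025 for the CDS enrichment, −0.040 to 0.34 for the start codon ratio, 0.27 to 0.53 for the stop codon ratio, −0.33 to −0.084 for the GC excess, 0.044 to 0.15 for the structure difference and 5.36 to 41.1% for the overlap. It was 6875 to 10456 for salt-only sites, 7654 to 13862 for control-only sites, 1730 to 1902 for genes higher in salt and 1797 to 2885 for genes higher in control. These counts set 1 salt list against 1 control list. They are thus of a wider class than those over all lists and do not enclose them. The mean overlap, 23.2% over all sites, was 9.68% on the same strand, 6.08% without calls identical to the other condition and 13.3% without calls identical to any list. The other alternatives moved these values by less than the spread between replicates, or counts by under 1.5 times. Counting every overlapped feature once gives shares of another kind and is not set against the shares of bases.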
